A study of Rattus norvegicus with 18 samples.

Results

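Mt-co1, Mt-co2, Mt-co3, Mt-atp6, Mt-atp8 and Mt-cyb are genes of the mitochondrial DNA that encode subunits of respiratory complexes III, IV and V. The 6 genes were chosen by their rat Ensembl IDs, and all 6 were found among the 30560 genes of the deposited count table. Bulk RNA sequencing was done on hearts from 3-week-old male offspring of Wistar rats. Per the labels, 7 of the offspring came from vehicle-treated dams. The others came from dams given cannabidiol in gestation (a compound of cannabis that does not intoxicate), 6 at 3 mg/kg/day (called CBD3) and 5 at 30 mg/kg/day (called CBD30). All groups are of the same strain, sex and age, and no genetic alteration is named for any of them.

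The mitochondrial DNA encodes a small set of proteins, all of them membrane subunits of the respiratory chain and of ATP synthase, and the nucleus encodes the remaining subunits. Complex III passes electrons to cytochrome c, complex IV (cytochrome c oxidase) passes them on to oxygen, and complex V (ATP synthase) uses the resulting proton gradient to make ATP. Mitochondrial genes are transcribed as long polycistronic RNAs that are cut into messages. The heart, which depends on oxidative phosphorylation, is rich in mitochondria and in these transcripts.

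Names were taken with the IDs, as ENSRNOG00000034234 for Mt-co1, ENSRNOG00000030371 for Mt-co2, ENSRNOG00000030700 for Mt-co3, ENSRNOG00000031979 for Mt-atp6, ENSRNOG00000033299 for Mt-atp8 and ENSRNOG00000031766 for Mt-cyb. The reference table at hand (47357 genes) holds an Ensembl ID for 0 genes and 0 genes of the mitochondrial chromosome, so these pairings could not be checked against it. The 6 rows lie within 20 rows of the table, in the order Mt-co1, Mt-co2, Mt-atp8, Mt-atp6, Mt-co3, Mt-cyb, which is their order on the mitochondrial DNA. For the same reason no other gene of the respiratory chain and no marker of a heart cell type could be matched to a row, and the tissue label was not checked against markers.

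Libraries held 44127009 to 89240727 counts. Each column carries a code such as 3.1 that no label explains, and samples are named here by group and code. Codes ending in digit 1 (4 vehicle, 3 CBD3, 2 CBD30) had totals of 63672078 to 89240727, and codes ending in digit 2 (3 of each group) 44127009 to 67302419. The labels do not say whether any offspring shared a dam. The tests count each heart as independent, so shared litters would make their p-values too small.

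Together the 6 genes took 19.0% ± 2.26 of all counts (SD, n = 18). The share was lowest at 14.5% in vehicle 1.1 and highest at 23.0% in vehicle 1.2, so the control group alone spanned the whole range. The median was 18.3% in vehicle hearts. In CBD3 hearts it ran from 14.8% over a median of 19.7% to 20.6%. The CBD30 hearts stood at 19.4% (code 1.1), 21.3% (2.1), 20.0% (1.2), 19.1% (3.2) and 18.2% (4.2). The mean ± SD was 18.7% ± 3.06 for the 7 vehicle hearts, 18.8% ± 2.12 for the 6 CBD3 hearts and 19.6% ± 1.15 for the 5 CBD30 hearts. The groups overlapped, and each difference of means was smaller than the SD of the vehicle group. At this depth the 95% Wilson interval of a single library's share was at most 0.0248 percentage points wide. Such intervals cover counting error only, since reads without molecular identifiers are not independent molecules. In bulk tissue, fewer mitochondria-rich cells and less mitochondrial RNA per cell cannot be told apart.

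The mean share over both digits of the code was nearly the same, at 19.0% for digit 1 and 19.1% for digit 2 (n = 9 each), although the library totals differed. With group in the fit, the digits differed at an unadjusted p under 0.05 in 1 of the 17009 genes tested (0.00588%; edgeR, 0 after adjustment), and the 6 genes differed by -0.0032 (Mt-atp8) to -0.019 (Mt-atp6) on the log2 scale. Digits this alike over nearly all genes are what counts already adjusted for the digit would show, but no source used here states such a step and it was not tested. If it was taken, the near-equal digit means were set by it, and the digit-specific values below and all p-values, which make no allowance for it, may be affected.

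**Figure D1:**
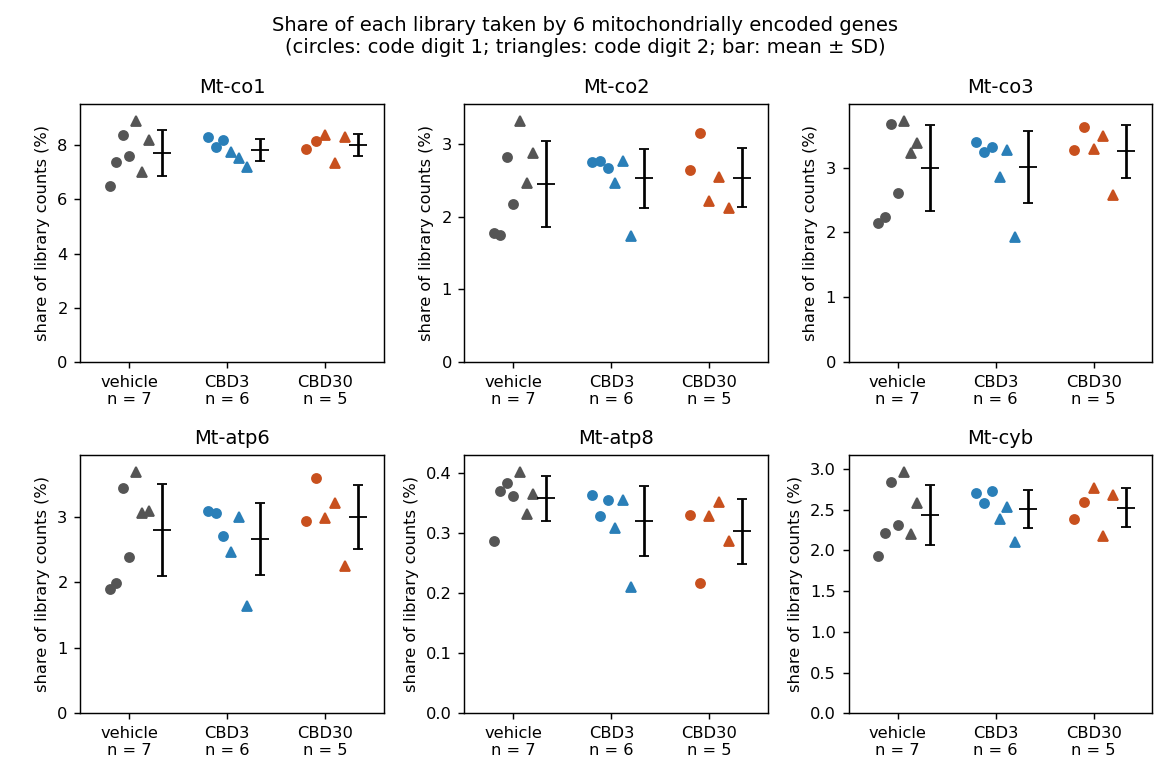
Share of all counts of a library (%, y axis, from 0) taken by each of the 6 genes in vehicle, CBD3 and CBD30 hearts. Each point is a library, circles for codes ending in 1 and triangles for codes ending in 2, and the bar gives the mean ± SD; the groups overlap for every gene, with Mt-co1 between 6.51% and 8.90%.

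Complex IV has 3 mitochondrially encoded subunits, which form its catalytic core. Mt-co1 carries the heme and copper centre where oxygen is reduced. It took the largest share of counts of any gene in each of the 18 libraries. Its share ran from 6.51% over a median of 7.61% to 8.90% in vehicle hearts, and from 7.201% over 7.83% to 8.31% in CBD3 hearts. In CBD30 hearts it was 7.85%, 8.14%, 8.39%, 7.36% and 8.30% (codes 1.1, 2.1, 1.2, 3.2 and 4.2). All CBD3 and CBD30 values lay inside the vehicle range.

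Mt-co2, the subunit that receives electrons from cytochrome c, spread more widely. Its share ran from 1.75% over a median of 2.47% to 3.33% in vehicle hearts, and from 1.74% over 2.72% to 2.78% in CBD3 hearts. In CBD30 hearts it was 2.65%, 3.16%, 2.22%, 2.55% and 2.13%, in the same order of codes. Mt-co3, the third core subunit, ran from 2.14% over 3.22% to 3.73% in vehicle and from 1.93% over 3.26% to 3.39% in CBD3 hearts. In CBD30 hearts it was 3.28%, 3.62%, 3.29%, 3.48% and 2.57%. For both genes vehicle 1.1, vehicle 2.1, CBD3 3.2 and CBD30 4.2 were the 4 lowest libraries of the 18, so low values occurred in every group.

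The mitochondrial DNA gives complex V its subunits a and 8, encoded by Mt-atp6 and Mt-atp8. Subunit a forms part of the proton path through the membrane, and subunit 8 is a small protein of the same membrane sector. Their coding sequences overlap, and both are carried on a shared message. No source used here says how reads over the overlap were counted, so the split of counts between Mt-atp8 and Mt-atp6 is uncertain.

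The Mt-atp6 share ran from 1.90% over a median of 3.05% to 3.68% in vehicle hearts and from 1.64% over 2.85% to 3.09% in CBD3 hearts. In CBD30 hearts it was 2.93%, 3.58%, 2.98%, 3.202% and 2.24% (codes 1.1, 2.1, 1.2, 3.2 and 4.2). Its 4 lowest libraries were the same 4 as for Mt-co2 and Mt-co3. Mt-atp8 had the smallest share of the 6, from 0.288% over 0.365% to 0.402% in vehicle and from 0.211% over 0.342% to 0.365% in CBD3 hearts. In CBD30 hearts it was 0.331%, 0.217%, 0.330%, 0.352% and 0.287%. The CBD30 sample coded 2.1 was thus the lowest of its group for Mt-atp8 and the highest of its group for Mt-atp6.

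Complex III has Mt-cyb, cytochrome b, as its mitochondrially encoded subunit, which holds both quinone-binding sites. Its share ran from 1.93% over a median of 2.31% to 2.96% in vehicle hearts and from 2.11% over 2.56% to 2.73% in CBD3 hearts. In CBD30 hearts it was 2.39%, 2.60%, 2.76%, 2.17% and 2.68%, all inside the vehicle range. Longer transcripts gather more reads and no transcript lengths were used, so shares of different genes are not levels per length.

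The comparison of CBD30 with vehicle addresses the effect of the higher dose in gestation on transcripts of the offspring heart. None of the 6 genes passed the test (edgeR, 0 of 6, adjusted p = 0.503 to 0.877 over 17009 genes tested), against 0% of all genes. At an unadjusted p under 0.05 the count was also 0 of 6, against 16.4% of all genes. DESeq2 and limma voom called 0 of 6 as well, where they called 0.546% and 0% of all genes. The DESeq2 share is over 24347 genes with a p-value, a wider set than the 17009 genes of edgeR and limma voom. Mt-co3 was at 33259 ± 6017 CPM in CBD30 (CPM, with library sizes scaled by the trimmed mean of M values, TMM; SD, n = 5) and 30093 ± 9434 CPM in vehicle hearts (n = 7). Its log2 fold change was 0.14 ± 0.22 (SE; edgeR adjusted p = 0.744). Mt-atp6 was at 30661 ± 7010 CPM against 28056 ± 9634 CPM, which gave 0.13 ± 0.24 on the log2 scale (SE; adjusted p = 0.798 by edgeR).

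Mt-co1, Mt-co2 and Mt-cyb had log2 fold changes of 0.088, 0.075 and 0.080 for CBD30 against vehicle, on means of 81703, 26050 and 25745 CPM in CBD30 hearts. Mt-atp8 had the smallest p of the 6, at 3067 ± 428 CPM in the 5 CBD30 hearts (mean ± SD) and 3564 ± 713 CPM in the 7 vehicle hearts. Its log2 fold change was -0.22 ± 0.17 (SE; edgeR adjusted p = 0.503, unadjusted 0.206). The median log2 fold change was 0.084 over the 6 genes and -0.021 over all genes tested. CBD30 and vehicle libraries overlapped in CPM for all 6, while 0.629% of all genes had no overlap. The 95% intervals ran at most from a 0.677-fold (Mt-atp8) to a 1.54-fold level (Mt-atp6), so in the fit of all 18 libraries a 2-fold change either way lay outside each interval.

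CBD3 was compared with the same 7 vehicle hearts for the lower dose. None of the 6 genes passed (edgeR, 0 of 6, adjusted p = 0.729 to 0.978), against 0% of all genes. At an unadjusted p under 0.05 there were 0 of 6 against 8.92% of all genes. DESeq2 and limma voom also called 0 of 6, against 0.0780% of 24347 genes and 0% of 17009 genes. Log2 fold changes were 0.038 for Mt-co1, 0.052 for Mt-co2, 0.017 for Mt-co3, -0.058 for Mt-atp6 and 0.057 for Mt-cyb. Mt-atp8 was at 3250 ± 673 CPM in CBD3 hearts (SD, n = 6), or -0.13 ± 0.16 on the log2 scale (SE; adjusted p = 0.729 by edgeR). The 95% intervals ran from a 0.692-fold level (Mt-atp6) to a 1.41-fold level (Mt-co2). The groups overlapped for all 6 genes, where 0.194% of all genes had no overlap. The median log2 fold change was 0.028 over the 6 genes and -0.020 over all genes tested.

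Between the doses, none of the 6 passed either (edgeR, 0 of 6, adjusted p = 0.999 for each), against 0% of all genes. At an unadjusted p under 0.05 the count was 0 of 6 against 1.73% of all genes. DESeq2 and limma voom called 0 of 6, against 0.00411% of 24347 genes and 0% of 17009 genes. Mt-atp6 differed most, with a log2 fold change of 0.19 ± 0.25 (SE) for CBD30 against CBD3 and a 95% interval of 0.797-fold to 1.62-fold. Mt-co3 followed at 0.13 ± 0.22, and Mt-atp8 was at -0.084 ± 0.17. Mt-co1, Mt-co2 and Mt-cyb were at 0.050, 0.023 and 0.022. The median was 0.036 over the 6 genes and 0.010 over all genes tested. The groups overlapped for all 6, where 0.218% of all genes had no overlap.

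**Figure D2:**
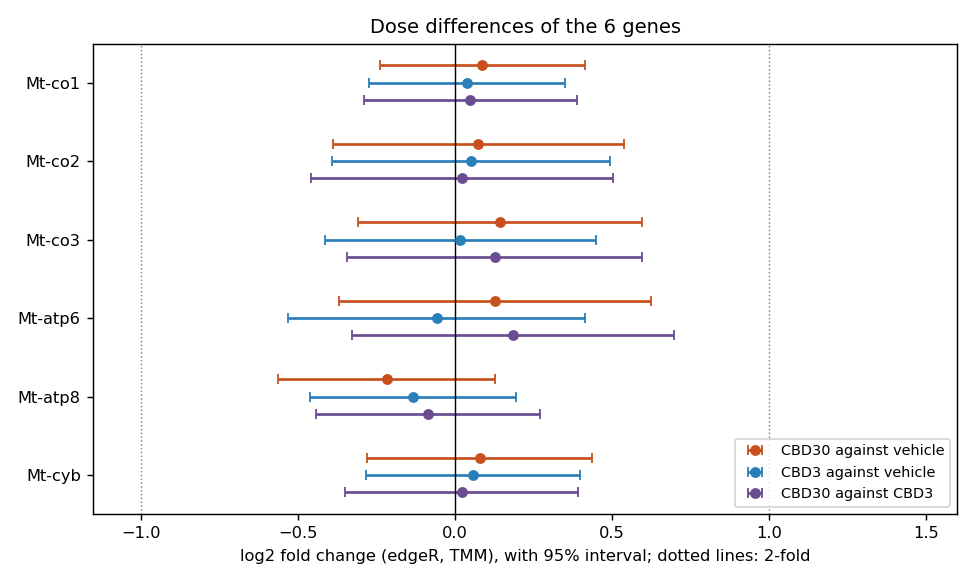
Log2 fold change (x axis, edgeR with TMM scaling) of each of the 6 genes (y axis) in the 3 comparisons, with 95% intervals and dotted lines at 2-fold. Every interval includes 0 and lies within the 2-fold lines; the farthest point from 0 is Mt-atp8 at -0.22 for CBD30 against vehicle.

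The small differences above moved with single libraries. Without the CBD30 sample coded 2.1 the log2 fold change against vehicle was -0.07 for Mt-co2 and 0.00073 for Mt-atp6. Without the CBD3 sample coded 3.2 (replicate 6), Mt-atp6 in CBD3 against vehicle was 0.062 and Mt-atp8 was -0.024. The CBD3 sample coded 3.2 also set the summed share, since the CBD30 mean exceeded the CBD3 mean by 0.78 percentage points with it and fell below it by 0.021 without it.

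The direction also differed between the digits of the code. In the digit 1 libraries, vehicle hearts averaged 17.4% ± 3.02 for the summed share (SD, n = 4), CBD3 hearts 20.2% ± 0.396 (n = 3) and CBD30 hearts 20.4% ± 1.34 (n = 2). In the digit 2 libraries the means were 20.6% ± 2.37 in vehicle, 17.5% ± 2.39 in CBD3 and 19.1% ± 0.876 in CBD30 hearts (n = 3 each). Vehicle hearts were therefore lowest in the digit 1 set and highest in the digit 2 set. The vehicle samples coded 1.1, 2.1 and 4.1 were the low ones, at 14.5%, 15.9% and 17.5%, while vehicle 3.1 was at 21.5%.

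Fitted within each digit, Mt-co2 had a log2 fold change for CBD30 against vehicle of 0.59 ± 0.30 (SE; edgeR adjusted p = 0.24) in digit 1 and -0.39 ± 0.28 (SE; edgeR adjusted p = 0.998) in digit 2. Mt-atp6 for CBD3 against vehicle was at 0.38 ± 0.30 and -0.55 ± 0.30 (SE; edgeR adjusted p = 0.505 and 0.9999). With so few libraries these intervals were wide, up to a log2 fold change of 1.30 for Mt-atp6 under CBD30 in digit 1. Mt-atp8 alone had the same sign in both sets for CBD30, at -0.24 in each. The difference between digits was itself tested as an interaction over all genes, and none of the 6 passed after adjustment (edgeR, 0 of 6 for each dose, against 0% of all genes for CBD3 and 0.00588% for CBD30). The smallest adjusted p was 0.376, for Mt-co2 under CBD30 (difference -0.97 ± 0.40 SE, unadjusted p = 0.0289). For CBD3 the unadjusted p was under 0.05 for Mt-co2 (0.0376), Mt-co3 (0.0454) and Mt-atp6 (0.0435), with the same adjusted p of 0.532. That is 3 of 6, against 9.02% of all genes, and for CBD30 it was 1 of 6, against 12.9%. Mt-co2, Mt-co3 and Mt-atp6 were correlated with each other over the 18 libraries (Pearson r = 0.957 to 0.990), so they are not independent results. The interaction was not among the tests planned beforehand. DESeq2 and limma were not run on this interaction.

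**Figure D3:**
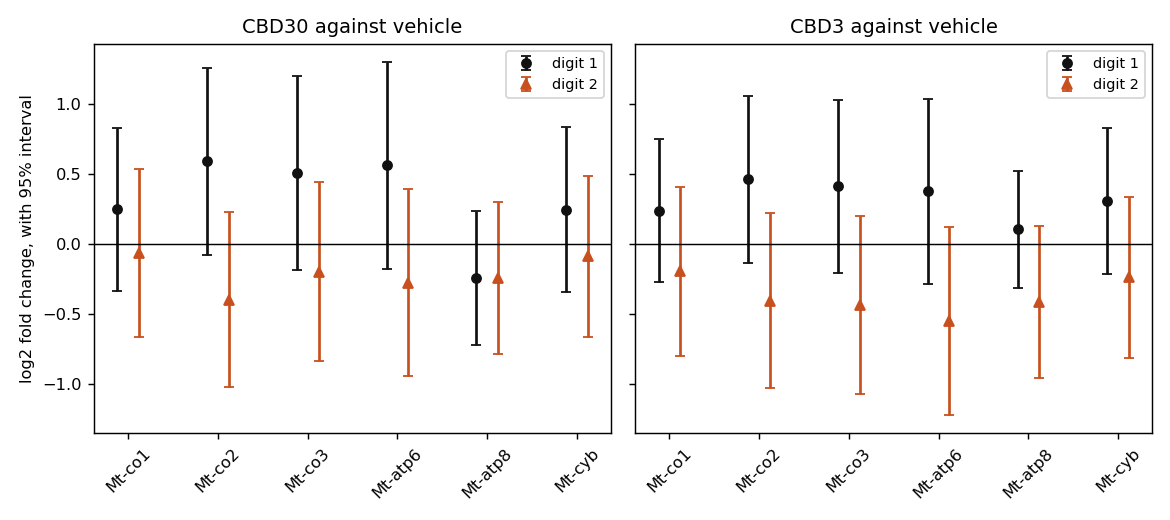
Log2 fold change with 95% interval (y axis) of each of the 6 genes (x axis) for CBD30 (left) and CBD3 (right) against vehicle, fitted in the libraries whose code ends in 1 (circles) or in 2 (triangles). Points of digit 1 lie above 0 and points of digit 2 below 0, except Mt-atp8 under CBD30, which is at -0.24 in both; all intervals include 0.

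Across the 18 hearts the 6 genes did not vary by the same amount. Mt-co1 varied least, with a coefficient of variation of its share of 7.60%, followed by Mt-cyb at 11.4%. Mt-atp8, Mt-co3, Mt-co2 and Mt-atp6 had 15.8%, 17.8%, 18.4% and 20.8%. The highest library exceeded the lowest by 1.37-fold for Mt-co1 and by 2.25-fold for Mt-atp6.

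Within a library, some genes kept a nearly fixed ratio to each other. The log2 ratio of Mt-co1 to Mt-cyb had an SD of 0.069 over the 18 libraries, and that of Mt-co3 to Mt-atp6 had an SD of 0.071. Mt-co3 and Mt-atp6 are neighbours on the mitochondrial DNA, and Mt-co1 and Mt-cyb are not. The ratio of Mt-co1 to Mt-co3 varied more, with an SD of 0.23, and that of Mt-co1 to Mt-atp6 had one of 0.28. Mt-co2 went with the pair of Mt-co3 and Mt-atp6, with SDs of 0.10 against Mt-co3 and 0.12 against Mt-atp6. These are descriptions, and ratios in a library share its counts.

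The difference between these sets of genes showed in single libraries. Mt-co1 held 48.6% of the counts of the 6 genes in CBD3 3.2, 46.3% in vehicle 2.1, 45.6% in CBD30 4.2 and 44.8% in vehicle 1.1. In the other 14 libraries it held 38.2% to 43.6%. The 4 libraries are those with the lowest Mt-co2, Mt-co3 and Mt-atp6 shares. The group means of 41.5% ± 3.30 for vehicle, 41.8% ± 3.54 for CBD3 and 40.9% ± 3.02 for CBD30 (± SD; n = 7, 6 and 5) differed by less than these SDs.

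**Figure D4:**
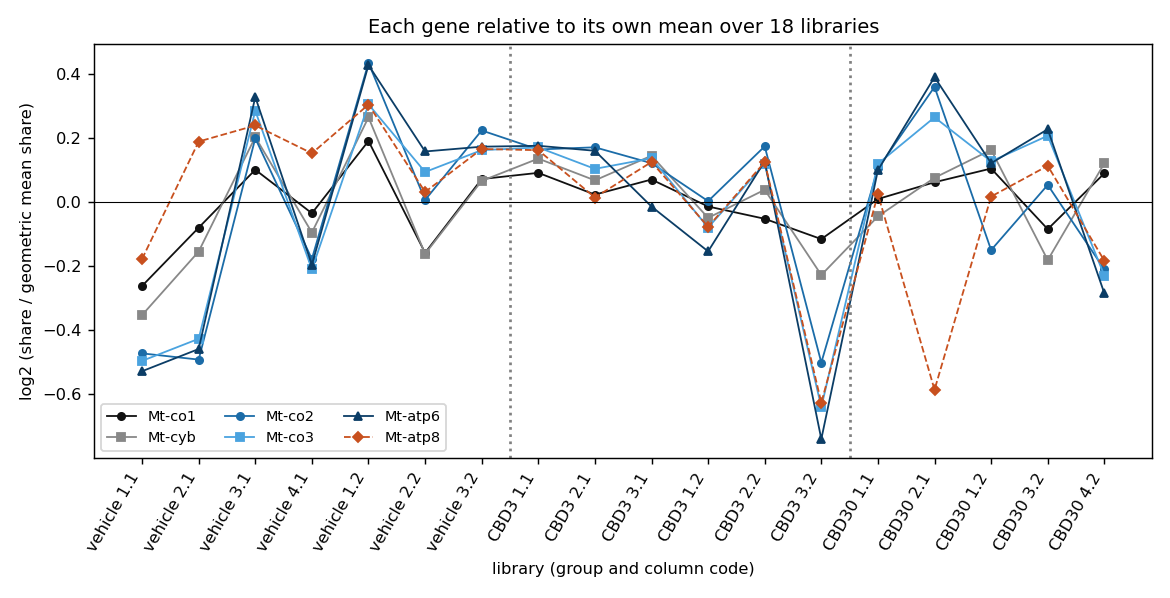
Log2 of each gene's share over its own geometric mean (y axis) in each of the 18 libraries (x axis), with dotted lines between vehicle, CBD3 and CBD30. Mt-co2, Mt-co3 and Mt-atp6 move together and lowest in CBD3 3.2, vehicle 1.1 and vehicle 2.1; Mt-atp8 leaves them in CBD30 2.1, where its share was 0.217%.

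Mt-atp8 followed its neighbour Mt-atp6 less closely than Mt-co3 did. Counts of Mt-atp8 per 100 of Mt-atp6 averaged 13.4 ± 2.99 for vehicle, 12.2 ± 0.867 for CBD3 and 10.4 ± 2.56 for CBD30 (± SD; n = 7, 6 and 5). The vehicle values ran from 10.9 over a median of 11.9 to 18.7, with vehicle 2.1 highest and vehicle 1.1 and 4.1 at 15.2 each. The CBD3 values ran from 10.8 over 12.2 to 13.1. In CBD30 hearts the values were 11.3, 6.05, 11.1, 11.0 and 12.8 (codes 1.1, 2.1, 1.2, 3.2 and 4.2). High ratios thus occurred in 3 of the 4 digit 1 vehicle hearts and the lowest in a digit 1 CBD30 heart, while all digit 2 hearts lay between 10.9 and 12.9.

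As a percentage of the counts of the 6 genes, Mt-atp8 averaged 1.93% ± 0.211 for vehicle, 1.69% ± 0.145 for CBD3 and 1.56% ± 0.318 for CBD30 (± SD; n = 7, 6 and 5). Of the 6 CBD3 hearts 3 lay below the lowest vehicle heart (1.75%), and of the 5 CBD30 hearts 4 did. In the digit 1 hearts the means were 2.04% for vehicle, 1.73% for CBD3 and 1.36% for CBD30 (n = 4, 3 and 2), with CBD30 2.1 at 1.02%. In the digit 2 hearts they were 1.79%, 1.65% and 1.69% (n = 3 each), without a fall from CBD3 to CBD30. The groups overlapped and this ratio was not tested. By counts of Mt-atp8 per 100 of Mt-atp6, only 1 CBD3 heart and 1 CBD30 heart lay below the lowest vehicle heart. No such count of hearts was made for other genes. By contrast, Mt-atp6 counts per 100 of Mt-co3 stood at 92.5 ± 3.56, 88.2 ± 4.77 and 91.6 ± 4.44 in the 3 groups.

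**Figure D5:**
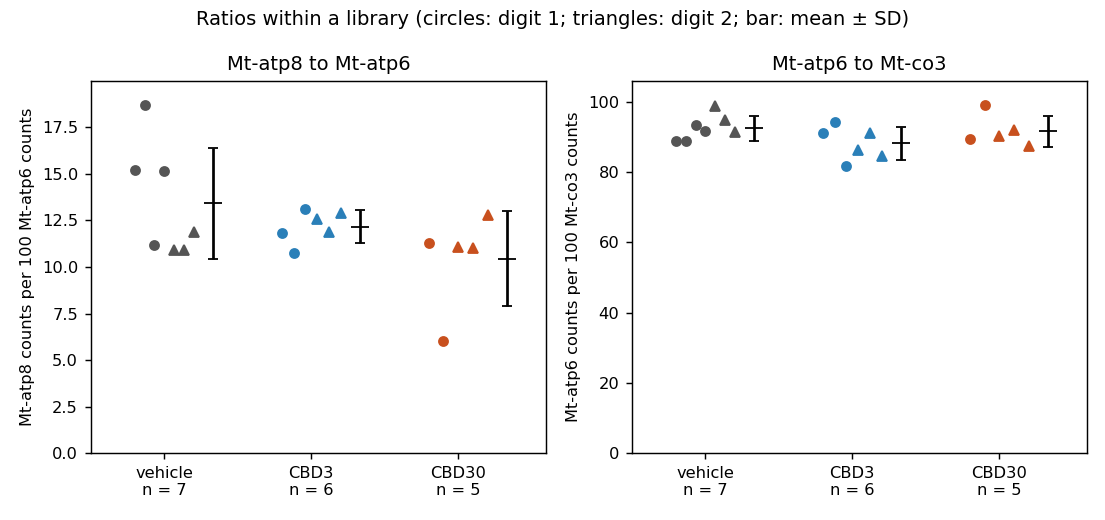
Counts of Mt-atp8 per 100 counts of Mt-atp6 (left) and of Mt-atp6 per 100 of Mt-co3 (right) in each library (y axes from 0) by group, circles for digit 1 and triangles for digit 2, bars for the mean ± SD. The left panel spreads from 6.05 to 18.7 among digit 1 libraries and the right panel stays between 81.7 and 98.9.

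The scaling of libraries moved the spread of these genes. TMM factors ran from 0.873 (CBD30 2.1) to 1.15 (vehicle 1.1), and the 4 vehicle hearts with the lowest summed shares (codes 1.1, 2.1, 4.1 and 2.2) were those with a factor above 1. In vehicle hearts the coefficient of variation of Mt-co1 was 10.8% as a share of all counts and 21.5% in TMM-scaled CPM. For Mt-cyb it was 15.3% and 26.0%. Under scaling by relative log expression or by library size alone, each of the 18 log2 fold changes kept its sign and none was called. Relative to other genes, the fitted biological coefficient of variation (square root of the edgeR dispersion) was 16.2% for Mt-co1 and 27.1% for Mt-atp6, against a median of 19.4% over all genes tested.

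Of the 13521 other genes whose mean reached 1 CPM, ENSRNOG00000003117 followed the mean log2 CPM of the 6 genes most closely over the 18 hearts (Pearson r = 0.970, Spearman rho = 0.948). ENSRNOG00000029707 came next (r = 0.961, rho = 0.922), at a mean of 17609 CPM. They were picked as the highest of all and are given as a description, since the values share library and scaling. Neither ID could be matched to a symbol. Their log2 fold changes for CBD30 against vehicle were -0.0079 and -0.11.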

How the data were processed

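The deposited table holds integer read counts for each Ensembl gene in 18 hearts. Among tools and builds, featureCounts, edgeR and mRatBN7.2 are named per the submitters' processing notes. Per the labels' protocols, libraries were stranded and made from enriched messenger RNA. No source used here gives the aligner, the annotation release or how multi-mapped or overlapping reads were counted. Groups come from the titles. Of the columns 14 carry a replicate number. The codes of 4 vehicle columns each stand in the descriptions of 2 vehicle samples, so these were used without a number. The difference between code digits was fitted with group as a term, after seeing the data.

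Genes passing filterByExpr (minimum count 10, minimum total 15) were scaled by TMM and tested by edgeR's quasi-likelihood F test (version 4.0.16, R 4.3.3) on all 18 samples together, Benjamini-Hochberg adjusted over 17009 genes, threshold 0.05. Standard errors derive from the F statistic. Log2 CPM used a prior count of 2. Shares are counts over the column total. The pipeline was also run on simulated counts with known changes. These were drawn independently for each gene, without digit or litter structure, and the outcome is not given here. Alternatives included DESeq2 1.42.0 and limma 3.58.1. All 6 genes were named, plus the 2 genes most correlated with their mean log2 CPM. The genes, lists and tests were chosen with earlier results of these data known.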

Additional observations from a re-analysis of the deposited data

Results flagged for a closer look

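In 48 sets of 5 to 7 libraries (the 6 genes as CPM and as shares, the summed share and 3 ratios, in each group), a library far from the others of its group was looked for, and chance gives about 1 in 20. It was found in 5 sets. In CBD3 hearts the sample coded 3.2 stood apart in 4 of them. Its Mt-co2 level was 16265 CPM against 24443 CPM in the nearest other heart, and its Mt-co2 share 1.74% against 2.46%. Its Mt-co3 share was 1.93% against 2.85%, and its Mt-atp8 share 0.211% against 0.309%. These 4 are values of 1 library and not independent of each other. In CBD30 hearts the sample coded 2.1 had 6.05 Mt-atp8 counts per 100 of Mt-atp6, against 11.0 in the nearest other heart.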

How the results depend on the processing

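Each of the 18 log2 fold changes of the 6 genes was recomputed under 30 other settings, and 0 of 540 values passed the threshold (lowest adjusted p = 0.216). With relative log expression factors, library size only, no filter on low counts, only the groups compared, DESeq2, limma voom, or the code digit as a covariate, all 18 kept their direction. So did leaving out any of 6 libraries (CBD30 replicates 1, 4 and 5, CBD3 replicates 4 and 5, vehicle replicate 7). The other settings changed the sign of some; the cause was not tested.

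In the 14 numbered libraries with a replicate block, the log2 fold changes of CBD30 against vehicle were -0.18 (Mt-co1), -0.63 (Mt-co2), -0.59 (Mt-co3), -0.70 (Mt-atp6) and -0.26 (Mt-cyb), with Mt-atp8 at -0.69. For CBD3 they were -0.15 (Mt-co1), -0.52 (Mt-co2), -0.59 (Mt-co3) and -0.19 (Mt-cyb), with the same sign as in all 18 libraries but farther from 0 for Mt-atp6 (-0.75, unadjusted p = 0.00442, adjusted p = 0.314 by edgeR) and Mt-atp8 (-0.49). Between doses they were -0.025 (Mt-co1), -0.11 (Mt-co2) and -0.071 (Mt-cyb), with the sign of the main fit for Mt-co3 (0.0048), Mt-atp6 (0.049) and Mt-atp8 (-0.19). With the block 4 of 6 genes had an unadjusted p under 0.05 at each dose (edgeR, against 13.0% and 11.4% of all genes). After adjustment 0 of 6 passed. Of these, Mt-co2, Mt-co3 and Mt-atp6 moved together and are not independent results. Vehicle replicate 5 is the only numbered vehicle library that shares its number with a CBD30 library. Vehicle replicates 5 and 6 share theirs with CBD3 libraries, and vehicle replicate 7 with none. The blocked differences from vehicle thus rest on few libraries, among them vehicle 1.2 (highest summed share) and CBD3 3.2 (flagged above). In 8 same-numbered pairs the correlation of deviations ran from -0.196 to 0.308, above 0.1 in 2. In pairs with unlike numbers it ran from -0.291 to 0.457. Same-numbered samples were thus not seen to be more alike, but so few pairs cannot show whether the numbers pair the samples. The titles number the replicates within each group, and a number can join unlike codes. Replicate 3 is CBD3 3.1 and CBD30 1.2, of unlike digits. Replicate 5 is vehicle 1.2, CBD3 2.2 and CBD30 4.2. The 4 unnumbered vehicle libraries are left out of the blocked fit, which by itself moved values. Without the block, the same libraries gave -0.020 (Mt-co1), -0.20 (Mt-co2), -0.087 (Mt-co3), -0.13 (Mt-atp6), -0.30 (Mt-atp8) and -0.052 (Mt-cyb) for CBD30. For CBD3 they gave -0.070 (Mt-co1), -0.22 (Mt-co2), -0.21 (Mt-co3), -0.32 (Mt-atp6), -0.22 (Mt-atp8) and -0.074 (Mt-cyb).

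The fit of the numbered libraries without the block and the following fits were chosen after seeing the data. In this paragraph, only values whose sign differed from the fit of all 18 libraries are listed. In digit 2 alone, CBD30 against vehicle gave -0.063 (Mt-co1), -0.39 (Mt-co2), -0.20 (Mt-co3), -0.27 (Mt-atp6) and -0.087 (Mt-cyb), CBD3 gave -0.19 (Mt-co1), -0.40 (Mt-co2), -0.44 (Mt-co3) and -0.24 (Mt-cyb), and the doses differed by 0.17 for Mt-atp8. In digit 1 alone, CBD3 against vehicle gave 0.38 (Mt-atp6) and 0.11 (Mt-atp8), and the doses differed by -0.063 for Mt-cyb. Without vehicle 1.1, vehicle 2.1 and CBD30 2.1, CBD30 against vehicle gave -0.069 (Mt-co1), -0.27 (Mt-co2), -0.14 (Mt-co3), -0.20 (Mt-atp6) and -0.11 (Mt-cyb). CBD3 gave -0.067 (Mt-co1), -0.14 (Mt-co2), -0.17 (Mt-co3) and -0.073 (Mt-cyb), and the doses differed by -0.0023 (Mt-co1), -0.12 (Mt-co2) and -0.035 (Mt-cyb).

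Leaving out each library in turn, the lowest adjusted p was 0.402. CBD30 against vehicle ran from 0.026 to 0.17 (Mt-co1), -0.071 to 0.21 (Mt-co2), 0.052 to 0.25 (Mt-co3), 0.00073 to 0.25 (Mt-atp6), -0.29 to -0.15 (Mt-atp8) and 0.0065 to 0.17 (Mt-cyb). CBD3 ran from -0.024 to 0.12 (Mt-co1), -0.036 to 0.19 (Mt-co2), -0.072 to 0.13 (Mt-co3), -0.15 to 0.066 (Mt-atp6), -0.20 to -0.024 (Mt-atp8) and -0.016 to 0.15 (Mt-cyb). The doses differed by -0.0021 to 0.092 (Mt-co1), -0.12 to 0.10 (Mt-co2) and -0.040 to 0.084 (Mt-cyb), and the other 3 kept their sign. The summed share differed by 0.165 to 1.58 percentage points (CBD30 minus vehicle), -0.615 to 0.887 (CBD3 minus vehicle) and -0.021 to 1.14 (CBD30 minus CBD3).

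Over all genes, 0 passed in each comparison with edgeR. DESeq2 called 133 for CBD30 against vehicle, 19 for CBD3 and 1 between doses, and the fit of only the groups compared called 1 between doses. Leaving out a library, CBD30 against vehicle had 0 to 267 called, with 267 without vehicle 3.1 and 1 without CBD30 1.1 (replicate 1). The counts of each of the 6 genes were 126632 or more in every library. What limited the calls was not tested.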
